A study of Mus musculus with 8 samples.

Results

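The G1 cyclins and their kinases are the genes that carry a cell through the first gap phase of its cycle and into DNA synthesis. The set held 9 of the 18193 genes measured: the D-type cyclins Ccnd1, Ccnd2 and Ccnd3, the E-type cyclins Ccne1 and Ccne2, the kinases Cdk4, Cdk6 and Cdk2, and the phosphatase Cdc25a. They were chosen by name, with earlier results of these data known. Every probe set annotated with only that gene symbol was used, which gave 27 probe sets. RNA of mouse embryonic stem cells (ESCs), cultured cells with the developmental potential of the early embryo, was labelled with biotin and hybridised to Affymetrix expression arrays, 1 array per sample. Released cells (3 arrays) were given 64 μM 10058-F4 for 60 h and then kept for 48 h without it. Inhibitor-treated cells (2 arrays) were given 64 μM 10058-F4, a small molecule that blocks the pairing of MYC with MAX, for 60 h. Control cells (3 arrays) received DMSO, the solvent, in an equal volume.

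All 3 groups grew on gelatine with no serum and no feeder cells, in N2B27 medium with leukaemia inhibitory factor, 1 μM PD0325901, which blocks MEK, and 3 μM CHIR99021, which blocks GSK3. The controls therefore carried both of these pathway inhibitors too. The labels name no cell line and leave unsaid whether replicates were grown separately. The p-values therefore reflect the spread from array to array alone, and that spread may be technical. The control cells were sampled at the end of treatment, and no DMSO culture with a further 48 h was among the samples, so release and extra time in culture cannot be told apart.

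D-type cyclins bind CDK4 or CDK6, and E-type cyclins bind CDK2. These complexes phosphorylate the retinoblastoma family of pocket proteins, which then let go of E2F transcription factors, and E2F targets include Ccne1, Ccne2, Cdc25a and many replication genes. CDC25A removes inhibitory phosphates from CDKs, and Ccnd2, Cdk4 and Cdc25a are described in the literature as MYC targets. Mouse ESCs are known for a short G1 phase and, in serum, for cyclin E and CDK2 activity through most of the cycle.

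Promoter windows, from 250 bases before to 50 bases after the annotated start, were found in RefSeq (GRCm38.p6) for 6 of the 9 members: Ccnd3, Ccne1, Cdk2, Cdk4, Cdk6 and Cdc25a. They were searched on both strands for the E-box CACGTG, the palindromic site that MYC and MAX are known to bind, and for 4 forms of the E2F site, TTTCCCGC, TTTGGCGC, TTTCGCGC and TTTGCCGC. The 4 windows with a match are shown because they hold letters known as binding sites of MYC or of E2F factors, with matches in capitals, 5′ to 3′ on the strand of the gene. No matches overlapped each other.
Cdk4 (chr10:127063285-127063584, plus strand): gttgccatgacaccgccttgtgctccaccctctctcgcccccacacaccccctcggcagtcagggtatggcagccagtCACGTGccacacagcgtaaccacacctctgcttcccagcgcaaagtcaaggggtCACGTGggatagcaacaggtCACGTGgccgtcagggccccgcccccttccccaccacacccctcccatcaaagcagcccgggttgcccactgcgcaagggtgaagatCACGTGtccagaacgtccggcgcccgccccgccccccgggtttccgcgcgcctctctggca
Cdk6 (chr5:3343643-3343942, plus strand): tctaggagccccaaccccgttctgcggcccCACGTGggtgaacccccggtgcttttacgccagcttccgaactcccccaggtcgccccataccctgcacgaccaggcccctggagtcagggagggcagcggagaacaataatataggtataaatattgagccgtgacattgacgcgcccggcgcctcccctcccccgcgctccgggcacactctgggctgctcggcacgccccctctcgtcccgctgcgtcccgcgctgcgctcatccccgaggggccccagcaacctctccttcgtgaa
Cdc25a (chr9:109875329-109875628, plus strand): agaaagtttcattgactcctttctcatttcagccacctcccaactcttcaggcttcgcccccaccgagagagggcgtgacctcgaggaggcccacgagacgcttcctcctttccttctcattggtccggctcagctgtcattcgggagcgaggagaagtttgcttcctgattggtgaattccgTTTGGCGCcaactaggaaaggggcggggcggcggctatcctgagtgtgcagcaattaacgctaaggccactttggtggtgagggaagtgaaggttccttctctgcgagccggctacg
Cdk2 (chr10:128705002-128705301, minus strand): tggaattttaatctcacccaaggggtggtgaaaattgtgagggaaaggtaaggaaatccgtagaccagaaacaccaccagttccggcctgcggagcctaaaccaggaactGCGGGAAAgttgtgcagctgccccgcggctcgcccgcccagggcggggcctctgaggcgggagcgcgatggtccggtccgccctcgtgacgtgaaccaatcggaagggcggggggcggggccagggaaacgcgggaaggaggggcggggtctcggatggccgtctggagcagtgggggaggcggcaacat

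The Cdk4 window held 4 E-boxes, which began 172, 118, 98 and 11 bases before the start. The Cdk6 window held 1 E-box, 220 bases before the start. The Cdc25a window held TTTGGCGC 67 bases before the start, and the Cdk2 window held TTTCCCGC on the opposite strand, 140 bases before the start, read here as GCGGGAAA. The Ccne1 window and both Ccnd3 windows held none of these letter strings. Of 32851 RefSeq windows of the same length, 7.15% held an E-box and 2.26% held at least 1 of the 4 E2F forms. The share with 4 or more E-boxes, looked up after the Cdk4 window had been read, was 8 windows or 0.0244%. A match describes the letters of the window, and no binding was measured.

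Levels are the deposited log2 values, so a difference of 1 is a doubling. They are relative within an array, and a change in RNA content shared by most genes is not visible in them. In bulk RNA, fewer cells in a phase of the cycle and less RNA per cell cannot be told apart. Levels of different probe sets are not comparable, so each is compared only with itself across arrays. A change was called at an adjusted p under 0.05 in limma, adjusted over all 34945 probe sets with a single gene symbol. In counts of genes, each gene is represented by its probe set with the highest mean over the 8 arrays. Every share of all genes or all probe sets called, given below, is at that adjusted threshold. Counts at an unadjusted p under 0.05 in limma have no such share beside them, because it was not computed.

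With the inhibitor, 8 of the 9 genes fell and none rose, Ccnd2 being the gene that passed in no direction. At an unadjusted p under 0.05 in limma, which every called gene meets by definition, the counts were 8 lower and 0 higher, so no further gene passed. Of all genes, 39.6% were called in the same comparison, 21.1% lower and 18.5% higher. The median log2 change of the 9 genes was -1.13, against -0.0583 for all genes. The falls ran from 0.42 on the log2 scale for Cdk4 to 2.71 for Ccnd1.

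On release, 8 of the 9 genes rose relative to inhibitor-treated arrays and none fell. No further gene passed at an unadjusted p under 0.05 in limma. Of all genes, 39.7% were called, 21.2% higher and 18.5% lower. The median log2 change was 1.26, against 0.0615 for all genes. Between released and DMSO arrays, 1 of the 9 genes was called, Ccnd3, which was lower, while 3.29% of all genes were called lower and 7.08% were called in either direction. At an unadjusted p under 0.05 in limma, 2 of the 9 genes were higher and 1 lower. The gene called depended on the probe set rule. With the mean of the probe sets of a gene, Ccnd3 was not called (-0.08; limma adjusted p = 0.390). Ccnd1 was then called higher (0.26; limma adjusted p = 0.0131). The inhibitor-treated and the released arrays were both set against the same 3 DMSO arrays, so these comparisons are not independent of each other.

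**Figure D1:**
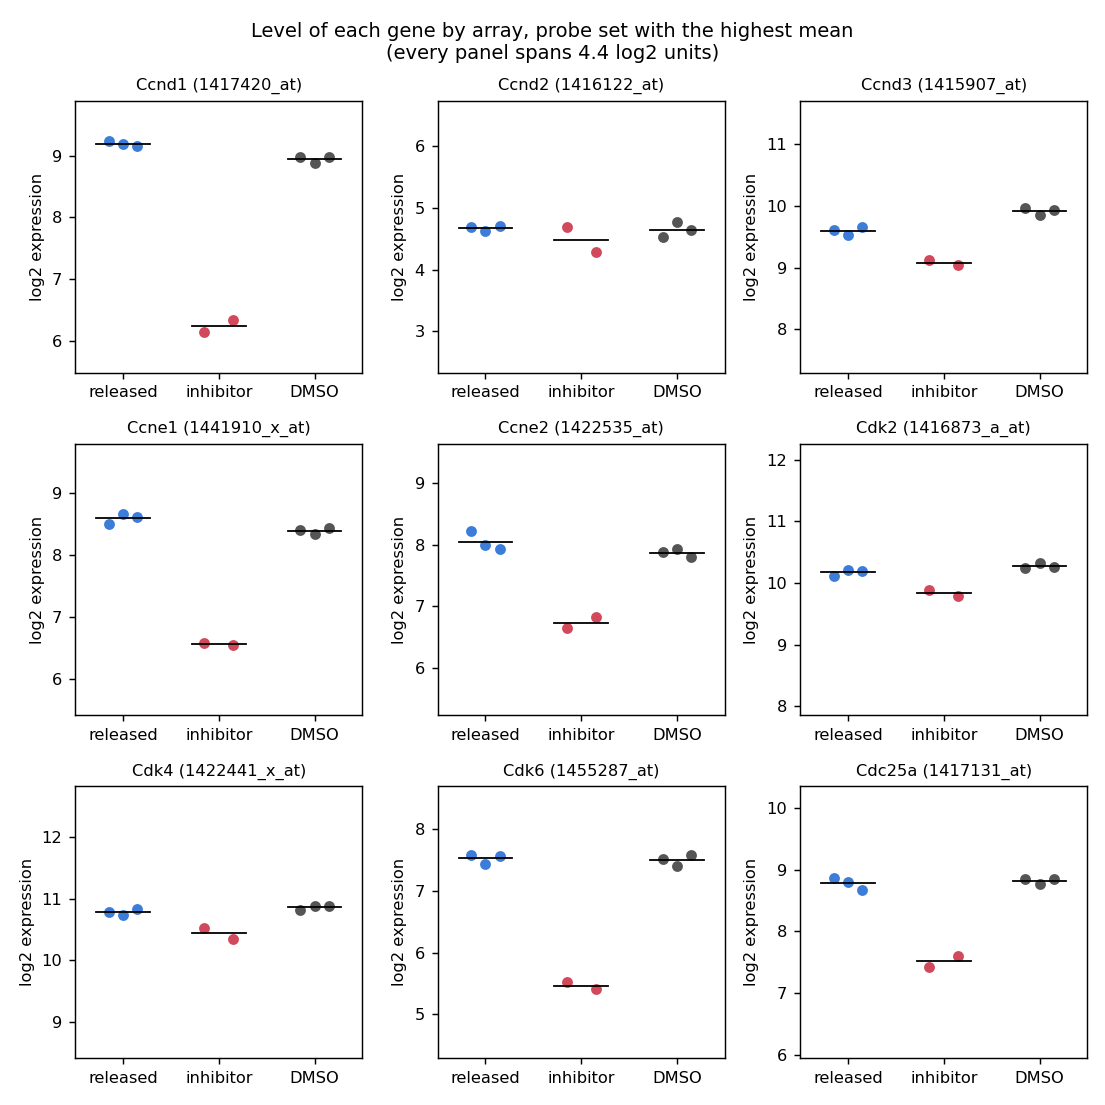
Log2 expression on each array for the 9 genes, at the probe set with the highest mean. Points are arrays (3 released, 2 inhibitor-treated, 3 DMSO), lines are group means, and all panels have the same height in log2 units. The inhibitor-treated points lie below all others for 8 genes, far below for Ccnd1, Cdk6 and Ccne1, and overlap the others for Ccnd2. The share of all genes separated in this way was not computed, so the count of 8 has no background.

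Markers were checked on the same arrays. All 7 ESC markers were measured, and their summed log2 levels were 78.6 to 78.7 on released, 80.0 to 80.2 on inhibitor-treated and 78.3 to 78.5 on DMSO arrays. Of the 7, 4 were called higher with the inhibitor than with DMSO: Klf4, Esrrb, Zfp42 and Tfcp2l1. Pou5f1, Sox2 and Nanog were not called in that comparison. Of 8 trophectoderm markers, 4 were called higher with the inhibitor than with DMSO, and the summed levels of all 8 were 44.7 to 45.2 on released, 54.6 to 55.8 on inhibitor-treated and 43.2 to 44.0 on DMSO arrays. The 4 were the keratins Krt8 and Krt18 and the transcription factors Eomes and Gata3, while Cdx2, a defining factor of that lineage, changed by -0.20 ± 0.14 (SE; limma adjusted p = 0.285). Of the other lists, the inhibitor-treated arrays had called members lower than DMSO arrays in 2 of 6 endoderm, 1 of 8 fibroblast, 1 of 5 mesoderm and 3 of 5 neural markers. Among all genes, 18.5% were called higher and 21.1% lower in this comparison. Between released and inhibitor-treated arrays, 5 trophectoderm markers were called lower, the 4 above and Tfap2c, and 1 was called higher, Cdx2, by 0.62 ± 0.14 (SE; limma adjusted p = 0.00473). In that comparison 3 ESC markers were called lower and 1 higher, and 2 neural, 1 endoderm, 1 fibroblast and 1 mesoderm marker were called higher. The shares of all genes there were 21.2% higher and 18.5% lower. Between released and DMSO arrays, 1 trophectoderm marker was called higher, 1 lower, and 2 neural markers lower, where 3.79% of all genes were called higher and 3.29% lower. The 3′ minus 5′ signal of Gapdh, a measure of RNA integrity, was -0.133 to -0.117 on released, -0.148 and -0.216 on inhibitor-treated and -0.130 to -0.108 on DMSO arrays. The same measure of Actb overlapped between the groups, at 0.248 to 0.278 on released, 0.254 and 0.288 on inhibitor-treated and 0.251 to 0.269 on DMSO arrays. The part of these shifts in the results was not tested.

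Ccnd1 encodes cyclin D1, which activates CDK4 and CDK6 and is induced by growth signals. Its probe set 1417420_at read 9.23, 9.18 and 9.16 on released arrays, 6.14 and 6.33 on inhibitor-treated arrays, and 8.97, 8.88 and 8.97 on DMSO arrays. The inhibitor-treated arrays were the low ones, and the 3 groups did not overlap. The group means were 9.19 ± 0.03 for released (SD, n = 3), 6.23 ± 0.14 for inhibitor-treated (n = 2) and 8.94 ± 0.05 for DMSO arrays (n = 3). With the inhibitor the level was 6.53-fold lower than with DMSO, a log2 change of -2.71 ± 0.08 (SE; limma adjusted p = 1.38e-08). On release it was 7.75-fold higher than with the inhibitor, by 2.96 ± 0.08 (limma adjusted p = 1.24e-08).

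The other Ccnd1 probe sets moved the same way. Probe set 1417419_at read 7.96, 7.93 and 7.86 on released, 4.66 and 4.64 on inhibitor-treated, and 7.62, 7.59 and 7.54 on DMSO arrays. Probe set 1448698_at read 8.42, 8.42 and 8.45 on released, 6.04 and 6.17 on inhibitor-treated, and 8.26, 8.25 and 8.22 on DMSO arrays. On both, every released array was the highest and every inhibitor-treated array the lowest. The inhibitor against DMSO changes were -2.94 and -2.13.

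After release Ccnd1 lay above the DMSO level on all 3 probe sets, but the excess was small. It was 0.33 ± 0.06 for 1417419_at, which passed (limma adjusted p = 0.0113), 0.25 ± 0.07 for 1417420_at (limma adjusted p = 0.0659) and 0.19 ± 0.06 for 1448698_at (limma adjusted p = 0.0985). The call for 1417419_at held when each array was left out in turn. For 1417420_at the excess passed under 4 of 18 other settings. Among them were a fit on 1 probe set per gene (limma adjusted p = 0.048) and the mean of the Ccnd1 probe sets (0.26; limma adjusted p = 0.0131).

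Ccnd2 encodes cyclin D2, which binds the same kinases. Its brightest probe set, 1416122_at, read 4.69, 4.63 and 4.70 on released, 4.69 and 4.28 on inhibitor-treated, and 4.53, 4.78 and 4.64 on DMSO arrays. The 3 groups overlapped, and the inhibitor-treated arrays lay apart from each other by more than the groups did. The inhibitor against DMSO change was -0.17 (95% interval -0.42 to 0.09; limma adjusted p = 0.303). Without the first inhibitor-treated array it was -0.37 and passed (limma adjusted p = 0.0337), and without the second it was 0.04 and did not.

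The other 6 Ccnd2 probe sets lay between 1.85 and 3.76 on all arrays, near the bacterial Trpn control probe sets, which have no target in mouse RNA and lay between 2.15 and 2.95. Of these, 3 averaged no more than the highest Trpn value. Changes between inhibitor-treated and DMSO arrays ran from -0.25 to 0.34 over the 7 probe sets, and none was called over all 8 arrays. Leaving out 1 array made calls in both directions. The highest change, 0.34 for 1455956_x_at, became 0.59 and passed without the first DMSO array (limma adjusted p = 0.0137). The lowest, -0.25 for 1430127_a_at, kept that value and passed without the first released array (limma adjusted p = 0.0328). A single probe set, 1430127_a_at, was called between released and inhibitor-treated arrays. It read 3.72, 3.43 and 3.44 on released, 3.10 and 3.21 on inhibitor-treated, and 3.31, 3.47 and 3.45 on DMSO arrays, a rise on release of 0.37 ± 0.10 (SE; limma adjusted p = 0.0145) that no longer passed without the first inhibitor-treated array (limma adjusted p = 0.109). Without that same array the rise on release passed for 1416122_at (0.39; limma adjusted p = 0.0253) and for 1448229_s_at (0.45; limma adjusted p = 0.0383), and 1448229_s_at also passed without the first DMSO array (limma adjusted p = 0.0474). At levels this low a difference in RNA may give a small difference in signal. No Ccnd2 probe set was called with the inhibitor over all 8 arrays. For 1430127_a_at, however, every inhibitor-treated array read below every DMSO array (-0.25; limma unadjusted p = 0.0303, adjusted p = 0.0740). Changes in the other direction, 0.19 for 1416123_at and 0.34 for 1455956_x_at, came with overlapping groups.

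Ccnd3 encodes cyclin D3, the remaining D-type cyclin. Probe set 1415907_at read 9.61, 9.53 and 9.66 on released, 9.13 and 9.04 on inhibitor-treated, and 9.96, 9.86 and 9.94 on DMSO arrays. The groups were fully separated, with the inhibitor-treated arrays lowest and the released arrays between the others. The level was 1.79-fold lower with the inhibitor than with DMSO, by -0.84 ± 0.07 (SE; limma adjusted p = 1.15e-05), and 1.43-fold higher after release than with the inhibitor, by 0.52 ± 0.07 (limma adjusted p = 0.000288). Released arrays remained below DMSO arrays, by -0.32 ± 0.06 (limma adjusted p = 0.0179).

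This remaining difference was not stable. It no longer passed without the first DMSO array (-0.30, limma adjusted p = 0.0649), the third DMSO array (-0.31, adjusted p = 0.0523), the first released array (-0.32, adjusted p = 0.0543) or the second released array (-0.29, adjusted p = 0.0705). With all Ccnd3 probe sets averaged it was -0.08 (limma adjusted p = 0.390). The dim probe set 1438805_at fell by 0.33 with the inhibitor and rose by 0.35 on release, and its released and DMSO arrays overlapped at a change of 0.02. Probe set 1444323_at changed by -0.05 with the inhibitor (limma adjusted p = 0.653) and 0.10 on release (limma adjusted p = 0.321), neither of which passed.

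Cdk4 encodes a partner kinase of the D-type cyclins, and its promoter window is the one above with 4 E-boxes. Probe set 1422441_x_at read 10.79, 10.74 and 10.83 on released, 10.53 and 10.35 on inhibitor-treated, and 10.82, 10.89 and 10.89 on DMSO arrays. Both inhibitor-treated arrays were below the rest, while released and DMSO arrays overlapped. The log2 change with the inhibitor was -0.42 ± 0.08 (SE; limma adjusted p = 0.00133), a level 1.34-fold lower than with DMSO. The change on release was 0.34 ± 0.08 (limma adjusted p = 0.00481), which no longer passed without the second inhibitor-treated array (0.26, limma adjusted p = 0.059).

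Probe set 1422440_at of Cdk4 read 10.61, 10.59 and 10.63 on released, 10.25 and 10.20 on inhibitor-treated, and 10.80, 10.89 and 10.83 on DMSO arrays. It separated all 3 groups, with a change of -0.62 ± 0.07 with the inhibitor (SE; limma adjusted p = 4.87e-05) and of 0.39 ± 0.07 on release (limma adjusted p = 0.00105). Its released arrays read below DMSO arrays, by -0.23 ± 0.06 (limma adjusted p = 0.051), and that difference passed under 4 of 16 other settings, median centring among them (limma adjusted p = 0.0334). The last probe set, 1422439_a_at, changed by -0.37 with the inhibitor and 0.25 on release. Its call on release was lost without the first inhibitor-treated array (limma adjusted p = 0.126). Probe sets whose names end in x_at hold probes that can also match other transcripts, and the other 2 Cdk4 probe sets gave falls of 0.37 and 0.62.

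Cdk6 encodes the other partner kinase of the D-type cyclins. Probe set 1455287_at read 7.59, 7.44 and 7.57 on released, 5.53 and 5.40 on inhibitor-treated, and 7.53, 7.40 and 7.58 on DMSO arrays. The inhibitor-treated arrays stood far below, and released and DMSO arrays overlapped. The level was 4.11-fold lower with the inhibitor than with DMSO, by -2.04 ± 0.08 (SE; limma adjusted p = 1.02e-07), and 4.20-fold higher after release than with the inhibitor, by 2.07 ± 0.08 (limma adjusted p = 7.92e-08).

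Probe set 1435338_at of Cdk6 read 7.29, 7.28 and 7.26 on released, 5.04 and 5.11 on inhibitor-treated, and 7.50, 7.48 and 7.50 on DMSO arrays. Here the released arrays were also all below the DMSO arrays, by -0.22 ± 0.06 (SE; limma adjusted p = 0.0517), a difference that passed under 4 of 16 other settings. The change with the inhibitor was -2.42 ± 0.06 (limma adjusted p = 1.25e-08). The dimmer 1460291_at read 4.62, 4.52 and 4.32 on released, 3.35 and 3.42 on inhibitor-treated, and 4.60, 4.48 and 4.80 on DMSO arrays, with changes of -1.24 with the inhibitor and 1.10 on release. All 3 Cdk6 probe sets were called in both comparisons. The fall of each exceeded those of the Cdk4 probe sets, which was not tested as a difference between genes.

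Ccne1 encodes cyclin E1, the activator of CDK2 at the start of DNA synthesis. Probe set 1441910_x_at read 8.51, 8.67 and 8.61 on released, 6.58 and 6.54 on inhibitor-treated, and 8.41, 8.34 and 8.43 on DMSO arrays. The inhibitor-treated arrays were again lowest, and every released array lay just above every DMSO array. The level was 3.56-fold lower with the inhibitor than with DMSO, by -1.83 ± 0.07 (SE; limma adjusted p = 9.24e-08). It was 4.10-fold higher after release than with the inhibitor, by 2.03 ± 0.07 (limma adjusted p = 4.15e-08), and the difference from DMSO after release was 0.20 (95% interval 0.05 to 0.35), which did not pass after adjustment (limma adjusted p = 0.109).

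The second Ccne1 probe set, 1416492_at, whose name carries no mark of shared probes, read 8.21, 8.08 and 8.15 on released, 6.42 and 6.29 on inhibitor-treated, and 8.02, 8.12 and 7.95 on DMSO arrays. Its changes were -1.67 with the inhibitor, 1.78 on release and 0.11 between released and DMSO arrays, which overlapped. Ccne2, the gene of the related cyclin E2, had 1 probe set, 1422535_at. It read 8.23, 7.99 and 7.93 on released, 6.64 and 6.82 on inhibitor-treated, and 7.87, 7.93 and 7.80 on DMSO arrays. Both inhibitor-treated arrays were well below every other array.

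For Ccne2 the level was 2.19-fold lower with the inhibitor than with DMSO, by -1.13 ± 0.10 (SE; limma adjusted p = 1.23e-05), and 2.49-fold higher after release than with the inhibitor, by 1.32 ± 0.10 (limma adjusted p = 4.25e-06). After release it differed from DMSO by 0.18 (95% interval -0.01 to 0.38; limma adjusted p = 0.280).

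Cdk2 encodes the kinase that the E-type cyclins activate, and its window above holds an E2F form on the opposite strand. Probe set 1416873_a_at read 10.12, 10.22 and 10.20 on released, 9.89 and 9.78 on inhibitor-treated, and 10.24, 10.33 and 10.27 on DMSO arrays. The groups did not overlap, but the gaps were small. The changes were -0.44 ± 0.07 with the inhibitor (SE; limma adjusted p = 0.00073), 0.34 ± 0.07 on release (limma adjusted p = 0.00356) and -0.10 ± 0.06 between released and DMSO arrays (limma adjusted p = 0.431). Its other probe set, 1447617_at, lay between 2.12 and 2.27 on all arrays, near the low end of the range of the Trpn controls and below it on 2 arrays, and changed by -0.02 with the inhibitor (limma adjusted p = 0.858).

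Cdc25a encodes the phosphatase that removes inhibitory phosphates from CDK2 and other CDKs, and its window above holds TTTGGCGC. Probe set 1417131_at read 8.87, 8.79 and 8.67 on released, 7.43 and 7.60 on inhibitor-treated, and 8.84, 8.78 and 8.85 on DMSO arrays. Inhibitor-treated arrays were well below all others, and released and DMSO arrays overlapped. The level was 2.47-fold lower with the inhibitor than with DMSO, by -1.31 ± 0.08 (SE; limma adjusted p = 1.62e-06), and 2.40-fold higher after release than with the inhibitor, by 1.26 ± 0.08 (limma adjusted p = 1.83e-06).

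After release Cdc25a differed from DMSO by -0.04 (95% interval -0.21 to 0.13; limma adjusted p = 0.812). Probe set 1417132_at gave -1.24 with the inhibitor and 1.30 on release, with readings of 8.84, 8.78 and 8.79 on released, 7.52 and 7.48 on inhibitor-treated, and 8.70, 8.81 and 8.72 on DMSO arrays. The dim 1445995_at read 4.00, 3.61 and 3.50 on released, 3.39 and 3.13 on inhibitor-treated, and 3.60, 3.58 and 3.80 on DMSO arrays. Its log2 change was -0.40 with the inhibitor (limma adjusted p = 0.0536) and 0.44 on release (limma adjusted p = 0.0351). The call on release was lost without the first released array (0.29, limma adjusted p = 0.0788) and at an adjusted p under 0.01. It was also lost under repeated quantile normalization (0.39, limma adjusted p = 0.0681) and with only the arrays compared (limma adjusted p = 0.0539). Without the second inhibitor-treated array the rise was 0.31 and the call was lost too. The fall with the inhibitor passed under 5 of 15 other settings, among them only the arrays compared (limma adjusted p = 0.0223).

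Over all 27 member probe sets, 17 fell with the inhibitor and 0 rose, where 37.3% of all probe sets were called and 19.9% were lower. At an unadjusted p under 0.05 in limma, 19 were lower and 0 higher. On release relative to the inhibitor, 19 rose, where 36.8% of all probe sets were called and 19.9% were higher. Between released and DMSO arrays 1 was higher and 1 lower, 1417419_at of Ccnd1 and 1415907_at of Ccnd3, where 6.63% of all probe sets were called, 3.61% higher and 3.02% lower. Probe sets of 1 gene share its transcripts and are not independent. Of the 10 probe sets that were not called with the inhibitor, 7 belong to Ccnd2, and the others are 1444323_at of Ccnd3, 1447617_at of Cdk2 and 1445995_at of Cdc25a.

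**Figure D2:**
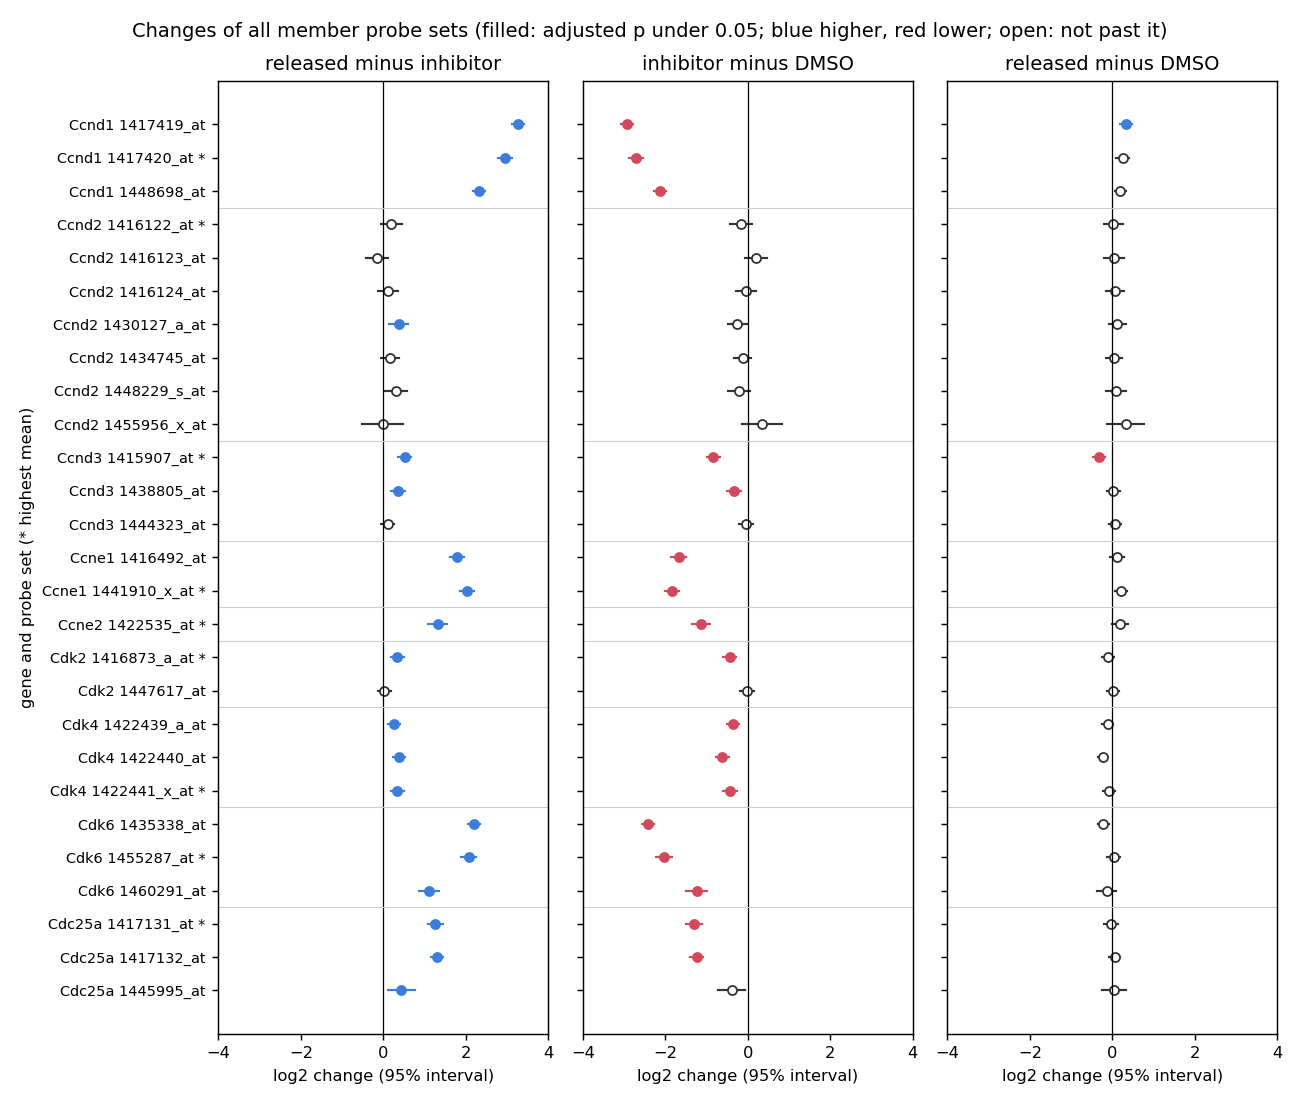
Log2 changes with 95% intervals (limma) of all 27 member probe sets in 3 comparisons. Filled points passed an adjusted p of 0.05, in red where lower and blue where higher, and open points did not. Points far from 0 in the first and second panels belong to Ccnd1, Cdk6, Ccne1, Ccne2 and Cdc25a. The Ccnd2 points lie nearer 0, some with wide intervals. Of these, 1430127_a_at is filled in the first panel, and its interval also excludes 0 in the second, where it is open. Between released and DMSO arrays 2 filled points remain.

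Around these genes, 7 lists of cell cycle genes were examined, of which 87 genes were measured. In all, 13 rose and 40 fell with the inhibitor, and 42 rose and 14 fell on release relative to inhibitor-treated arrays. Between released and DMSO arrays 1 was higher and 1 lower, and 8 and 11 were at an unadjusted p under 0.05 in limma. At an adjusted p under 0.05 in limma, 18.5% of all genes rose and 21.1% fell with the inhibitor. On release 21.2% rose and 18.5% fell, and 3.79% were higher and 3.29% lower between released and DMSO arrays. No share of all genes was computed at the unadjusted threshold, so the counts of 8 and 11 have no background. From each list the 3 genes with the smallest p between inhibitor-treated and DMSO arrays are named.

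The substrates of the cyclin D and cyclin E kinases are the pocket proteins, and their partners are the E2F factors. Of 13 pocket protein and E2F genes, 8 fell and 3 rose with the inhibitor, with a median log2 change of -0.46. E2f8, an atypical E2F that represses E2F targets, read 7.07, 7.42 and 7.20 on released, 5.19 and 5.05 on inhibitor-treated, and 7.27, 7.29 and 7.49 on DMSO arrays. Its change with the inhibitor was -2.23 ± 0.11 (SE; limma adjusted p = 3.51e-07), and its second probe set changed by -0.38.

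E2f3, an activating E2F, changed by -1.21 ± 0.07 (SE; limma adjusted p = 8.71e-07), and E2f7, the other atypical E2F, by -0.78 ± 0.08 (limma adjusted p = 2.36e-05). The 3 genes that rose, named after their values were seen, were the pocket proteins Rb1, by 0.52, and Rbl2, by 0.55, and the repressor E2f6, by 0.55. On release 8 genes of the list rose and 4 fell relative to inhibitor-treated arrays. After release 1 differed from DMSO, E2f5 (-0.39 ± 0.08 SE; limma adjusted p = 0.0176), but no gene of the list was called without the second DMSO array, the first released array or the second released array.

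CDK inhibitors, the proteins that bind and block these kinases, were mixed. Of 7 measured, 3 rose and 2 fell with the inhibitor, with a median of -0.09. Cdkn1a, which encodes p21, averaged 9.95 ± 0.03 on released (SD, n = 3), 10.40 ± 0.01 on inhibitor-treated (n = 2) and 10.14 ± 0.01 on DMSO arrays (n = 3). It rose by 0.26 ± 0.06 with the inhibitor (SE; limma adjusted p = 0.0086) and on release changed by -0.45 ± 0.06 (limma adjusted p = 0.000282). Cdkn2d and Cdkn2c, inhibitors of CDK4 and CDK6, fell with the inhibitor, with changes of -0.36 ± 0.07 (limma adjusted p = 0.00261) and -0.27 ± 0.07 (limma adjusted p = 0.0139). The count of 5 called was 2 without the second inhibitor-treated array, and 3 without the first or the third DMSO array. On release the count was 5 too, and 3 without the first inhibitor-treated array.

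Of 7 genes of the CDK-activating kinase, the other CDC25 phosphatases and the kinases that place inhibitory phosphates, 3 fell with the inhibitor and the same 3 rose on release. The genes were Cdc25b and Cdc25c, relatives of Cdc25a that act later in the cycle, and Wee1, whose kinase opposes them. Their changes with the inhibitor were -0.80 ± 0.09, -0.82 ± 0.08 and -0.72 ± 0.06 in that order (SE; limma adjusted p = 5.85e-05, 2.53e-05 and 1.27e-05). The median over the 7 was -0.06, close to that of all genes.

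Of 6 cyclins of S and M phase with their kinase, 4 fell with the inhibitor, with a median of -0.88. Ccnb2, a mitotic cyclin, averaged 10.16 ± 0.04 on released (SD, n = 3), 8.29 ± 0.01 on inhibitor-treated (n = 2) and 10.09 ± 0.04 on DMSO arrays (n = 3), a change with the inhibitor of -1.80 ± 0.07 (SE; limma adjusted p = 5.4e-08). Ccna2, the cyclin of S phase and G2, changed by -1.09 ± 0.07 (limma adjusted p = 1.67e-06), and Cdk1, the mitotic kinase, by -1.02 ± 0.07 (limma adjusted p = 1.91e-06). On release 4 rose relative to inhibitor-treated arrays.

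Of 16 genes of origin licensing and firing, the steps that prepare and start DNA replication, 13 fell with the inhibitor, with a median of -0.75. Cdc6, which loads the replicative helicase, averaged 9.22 on released, 7.17 on inhibitor-treated and 9.25 on DMSO arrays. It changed by -2.08 ± 0.08 (SE; limma adjusted p = 8.47e-08). Gmnn, which encodes the licensing inhibitor geminin, changed by -1.48 ± 0.07 (limma adjusted p = 2.46e-07), and Mcm10, a helicase activation factor, by -0.93 ± 0.07 (limma adjusted p = 3.17e-06). On release 13 rose relative to inhibitor-treated arrays.

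Of 15 genes that control the turnover of G1 cyclins and CDK inhibitors, 6 fell and 3 rose with the inhibitor, with a median of -0.07. Fbxo4, an F-box protein described as a receptor for cyclin D1 degradation, read 4.73, 4.60 and 4.72 on released, 6.58 and 6.54 on inhibitor-treated, and 4.89, 4.81 and 4.98 on DMSO arrays. Its rise with the inhibitor was 1.66 ± 0.08 (SE; limma adjusted p = 2.31e-07), but its second probe set changed by 0.02 and was not called. Skp2, the F-box protein that targets p27, changed by -1.02 ± 0.07 (limma adjusted p = 3.26e-06), with 5 of 6 probe sets called lower. Dtl, the substrate receptor for CDT1 and p21, changed by -0.92 ± 0.07 (limma adjusted p = 3.23e-06), also with 5 of 6 probe sets called lower. On release 7 genes of the list rose and 3 fell relative to inhibitor-treated arrays.

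Of 23 other cyclins and cyclin-dependent kinases, some of them with roles in transcription, 4 rose and 4 fell with the inhibitor, with a median of 0.03. Both counts were near the shares of all genes, 18.5% higher and 21.1% lower. Without the second inhibitor-treated array 5 were called in all. Ccng1, a p53 target, rose by 0.65 ± 0.07 (SE; limma adjusted p = 5.77e-05). Ccnl2, a cyclin linked to splicing, rose by 0.59 ± 0.08 (limma adjusted p = 0.000177), and Cdk13, a transcriptional kinase, by 0.46 ± 0.07 (limma adjusted p = 0.000422), with 1 of its 4 probe sets called and the others as low as -0.14. Between released and DMSO arrays Cdk12 was called higher (0.28 ± 0.07 SE; limma adjusted p = 0.0445). No gene of this list was called in that comparison without the first or second released array, either inhibitor-treated array, or the first or second DMSO array.

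**Figure D3:**
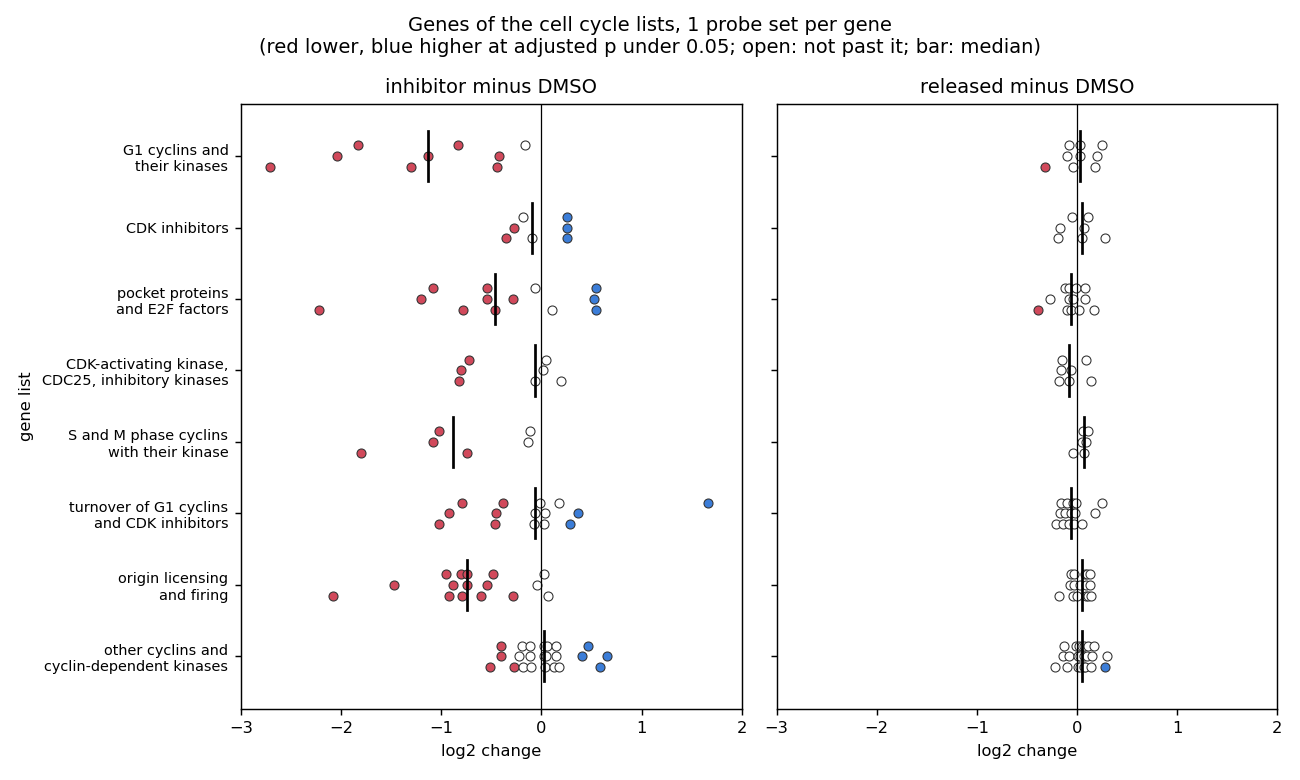
Log2 changes of single genes in the 9 member genes and the 7 lists, for inhibitor minus DMSO on the left and released minus DMSO on the right. Red points were called lower and blue points higher at an adjusted p under 0.05, open points were not called, and bars are list medians. With the inhibitor, the members, the S and M phase cyclins and the licensing genes have medians of -1.13, -0.88 and -0.75, and after release all medians lie between -0.08 and 0.07.

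Over the 8 arrays, the genes whose pattern was most like that of Ccnd1 (1417420_at) were Mymx, Nkx1-2 and Sox15, with Pearson correlations of 0.999, 0.998 and 0.998 among 16323 genes ranked. For Ccne1 (1441910_x_at) they were Plk1, Wee1 and Tmed10, at 0.999, 0.999 and 0.998. For Cdc25a (1417131_at) they were Cbs, Fam169a and Tuba1a, at 0.997, 0.997 and 0.996. Genes with the symbols of unnamed gene models were left out of these rankings. The arrays fall into groups with the inhibitor-treated ones apart, so these correlations describe mainly the difference between groups. Nkx1-2 read 7.14, 7.05 and 7.16 on released, 2.49 and 3.02 on inhibitor-treated, and 6.64, 6.68 and 6.60 on DMSO arrays, while Plk1 read 9.24, 9.38 and 9.30 on released, 8.08 and 8.01 on inhibitor-treated, and 9.17, 9.19 and 9.21 on DMSO arrays.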

How the data were processed

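The authors deposited a log2 level for every probe set on every array. Per the submitters' processing notes RMA was used, and oligo 1.32.0 and limma 3.2.15 are named. RMA corrects background, equalises value distributions between arrays and summarises probes. That the scale is log2 was judged from the range, 1.69 to 13.76, and the genome build is not given in the sources used here. Of 45101 probe sets, 34945 with 1 gene symbol in the platform annotation were tested, and the probe set with the highest mean over all arrays stood for each of 18193 genes.

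Groups came from the sample titles. A model of 1 mean per group was fitted to all 8 arrays in limma 3.58.1 (R 4.3.3; lmFit and eBayes, 5 residual degrees of freedom) over all 34945 probe sets. P-values were adjusted by the Benjamini-Hochberg method over those probe sets, also for counts of genes. Tests were two-sided at 0.05, with no level filter. The procedure was also run on simulated arrays with independent noise and far fewer changed probe sets than were called here. That run does not measure the error rate in these data. Arrays have no read depth, so precision depends on the number of arrays and on the spread of each probe set. The median standard error of a log2 change was 0.0901 against the inhibitor-treated arrays and 0.0806 between released and DMSO arrays.

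The members and lists were chosen with earlier results of these data known. All probe sets of the 9 members are reported, with the 3 genes of smallest p per list and the 3 most like Ccnd1, Ccne1 and Cdc25a. Of 89 listed symbols, Ccnb1 and Skp1a were not analysed here. The alternatives were the probe set rule, a level filter, 2 scalings, variance trend, array weights, fewer arrays, a stricter threshold, a replicate block and leaving out each array.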

Additional observations from a re-analysis of the deposited data

How the results depend on the processing

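With the inhibitor against DMSO, and on release against the inhibitor, the counts of called members and of called list genes stayed within 1.5 times under all 18 settings tried (16 for probe sets). Leaving out each array gave 8 to 9 and 7 to 9 member genes, 17 to 19 and 17 to 20 member probe sets, and 44 to 54 and 49 to 57 list genes in these comparisons. With 1 inhibitor-treated array left, that array was assumed to vary like the others. Released against DMSO was less stable. The 1 member gene called became 2 with 1 probe set per gene in the fit, 2 without low-level probe sets, 3 with a variance trend and robust fitting, and 0 at an adjusted p under 0.01. The 2 member probe sets became 5 without low-level probe sets, 4 with median centring, 7 with the variance trend and 0 at the stricter threshold. The 2 list genes became 10 with the variance trend, 1 with only the arrays compared, 0 at the stricter threshold and 1 with the replicate block. Leaving out each array gave 0 to 1 member genes, 1 to 2 member probe sets and 0 to 2 list genes. Over all genes, 1288 were called between released and DMSO arrays, 2399 with the variance trend, 545 at the stricter threshold, and as few as 783 without the second released array.

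Same-numbered arrays of different groups did not deviate together. Over 7 pairs the correlations of their deviations ran from -0.0527 to 0.0128, and over 14 differently numbered pairs from -0.0613 to 0.0807. Deviations were taken from group means, so these correlations are not independent of each other. The numbers were not taken to pair samples. With the replicate number as a block, 8, 8 and 1 member genes were called for inhibitor against DMSO, released against inhibitor and released against DMSO.

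Signs turned in 16 of 81 member changes, none of them called in the settings where the sign turned, and the cause was not tested. With the mean of the probe sets of a gene, Cdc25a changed by 0.0205 and Cdk6 by -0.109 between released and DMSO arrays. For Cdk2 1447617_at, inhibitor against DMSO became 0.0217 under repeated quantile normalization and 0.0159 with the replicate block, released against DMSO -0.0161 under median centring, and released against inhibitor -0.0144 under repeated quantile normalization and -0.0109 with the block. Leaving out each array gave it -0.0502 to 0.0113, -0.0361 to 0.0370 and -0.0154 to 0.0543 in these comparisons. For Ccnd2, leaving out each array gave 1416122_at -0.367 to 0.0351 (inhibitor against DMSO), -0.0317 to 0.0902 (released against DMSO) and -0.00919 to 0.392 (released against inhibitor). It gave 1416124_at -0.212 to 0.116 (inhibitor against DMSO) and -0.0484 to 0.280 (released against inhibitor), and 1455956_x_at -0.125 to 0.0873 (released against inhibitor). Between released and DMSO arrays the ranges were -0.0584 to 0.151 for 1416123_at, -0.0243 to 0.0802 for 1434745_at and -0.0185 to 0.158 for 1448229_s_at. In that comparison they were -0.0177 to 0.0589 for Ccnd3 1438805_at, -0.0871 to 0.0115 for Cdc25a 1417131_at, -0.102 to 0.146 for Cdc25a 1445995_at and -0.0184 to 0.0770 for Cdk6 1455287_at. Low signal limits some readings, since 3 Ccnd2 probe sets and Cdk2 1447617_at averaged no more than the highest Trpn control.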
